A study of Mus musculus with 2 samples.

Results

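The peaks described here are H3K9me2 peaks that end at or below position 8000000 on mouse chromosomes 1 to 19, in mm10 coordinates. They were chosen by position alone, and they lie in the first 5 Mb of sequence after the 3 Mb position near which the assembled autosomes begin. There were 1397 such peaks of 30144 autosomal peaks in the KO library and 1372 of 29528 in the WT library, 2769 of 59672 together. With the X and Y chromosomes the lists hold 32149 KO peaks and 31623 WT peaks. No peak crossed the 8 Mb limit and none started below 3 Mb. The window held 4.63% of the autosomal KO peaks and 4.65% of the WT peaks, and it was 3.95% of the autosomal span.

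H3K9me2, histone H3 dimethylated at lysine 9, was mapped in activated B cells of C57BL/6 mice by CUT&Tag, in which an antibody tethers a tagging transposase to chromatin that carries the mark. One group was labelled jmjd1c B KO (KO) and the other WT, with 1 library each and a strain, cell type and kit in common. The labels used here do not give the Cre line, the age or number of the mice, or how the cells were activated. The comparison of the libraries asks where H3K9me2 differs when B cells lack Jmjd1c. The lists rested on 34502392 tags in KO and 33474010 tags in WT, and the caller extended tags to 189 bp in KO and to 292 bp in WT. Peak widths and pileups are therefore not on a common scale between the libraries. Each genotype had a single library, so the differences given here have no replicates behind them and carry no p-value. All intervals are 95% intervals for counting error only. A peak list holds no expression values, so the labelled cell type could not be checked against its markers.

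Mouse chromosomes are telocentric: the centromere lies next to one end, in long arrays of satellite repeats that are largely missing from the assembled sequence. The satellite arrays around centromeres are classically marked by trimethylation of H3K9, whereas H3K9me2 is known from broad gene-poor and silent stretches of the chromosome arms. Jmjd1c belongs to the jumonji family that includes H3K9 demethylases. The windows studied here are the first unique sequence beyond the satellites, and they also hold fragments of repeats and duplicated genes.

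Among the genes of these chromosome ends, 2 sets of promoter sequence are shown. The first comes from chromosome 14, whose window is crowded with predicted genes that are near copies of each other and whose promoters were overlapped by peaks more often than those of the other windows. The promoter window of each entry runs from 250 bases before to 50 bases after the start, as given by RefSeq for GRCm38.p6. They are Gm3500 at chr14:5389025-5389324 on the minus strand, Gm3248 at chr14:5961632-5961931 on the minus strand, Gm3667 at chr14:6889882-6890181 on the minus strand and Gm3239 at chr14:4649507-4649806 on the plus strand. Capitals mark a stretch of 18 bases, GGTCGCTGGGGAAGGGGC, that the 4 windows have in common.
Gm3500: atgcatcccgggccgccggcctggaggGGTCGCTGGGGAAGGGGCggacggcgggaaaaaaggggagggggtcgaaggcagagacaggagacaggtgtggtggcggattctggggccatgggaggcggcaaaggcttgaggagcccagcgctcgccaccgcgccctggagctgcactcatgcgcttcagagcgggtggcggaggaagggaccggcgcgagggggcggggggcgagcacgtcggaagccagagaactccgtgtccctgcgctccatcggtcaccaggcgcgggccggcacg
Gm3248: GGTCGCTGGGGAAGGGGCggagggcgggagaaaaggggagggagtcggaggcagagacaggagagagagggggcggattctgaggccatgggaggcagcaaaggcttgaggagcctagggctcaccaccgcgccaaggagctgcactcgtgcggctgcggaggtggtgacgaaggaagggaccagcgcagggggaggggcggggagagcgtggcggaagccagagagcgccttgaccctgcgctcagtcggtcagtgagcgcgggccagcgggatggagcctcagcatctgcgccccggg
Gm3667: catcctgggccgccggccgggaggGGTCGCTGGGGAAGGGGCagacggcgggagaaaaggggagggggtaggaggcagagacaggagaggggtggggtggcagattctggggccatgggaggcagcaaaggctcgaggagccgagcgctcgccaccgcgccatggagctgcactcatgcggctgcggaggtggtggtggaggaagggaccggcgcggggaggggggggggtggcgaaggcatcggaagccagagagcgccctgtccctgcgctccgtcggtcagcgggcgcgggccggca
Gm3239: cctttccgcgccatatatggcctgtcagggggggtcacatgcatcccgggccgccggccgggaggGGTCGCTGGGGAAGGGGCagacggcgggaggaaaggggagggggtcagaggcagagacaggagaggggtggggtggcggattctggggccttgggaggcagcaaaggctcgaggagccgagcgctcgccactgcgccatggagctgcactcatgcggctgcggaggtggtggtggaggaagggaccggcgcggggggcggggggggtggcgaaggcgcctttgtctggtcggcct

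Pairs of these 4 sequences were 83.6% to 96.3% identical over local alignments of 219 to 300 columns. Searched on both strands, the 18-base stretch was in 23 of 31396 promoter windows on the autosomes (0.0733%). All 23 were among the 156 windows of the chromosome 14 start, and they belonged to 18 genes. Of the 23, 4 were overlapped by a KO peak, 6 by a WT peak and 7, of 6 genes, by either. The 4 windows printed are all among these 7. Over all 156 windows, 11 were overlapped in KO (7.05%), 8 in WT (5.13%) and 16 in either (10.3%). Over all autosomal promoter windows the share was 1.13% in KO and 1.2% in WT. Whether the stretch goes with peaks was not tested. At Gm3500 the peak pileup was 20.1 in KO and 32.0 in WT, and at Gm3248 it was 23.6 in KO and 31.9 in WT. Gm3667 had a WT peak with a pileup of 28.9 and no KO peak, and Gm3239 had a KO peak with a pileup of 17 and no WT peak. How reads that fit several of these copies were placed is not given in the sources used here, so which copy carried a peak is uncertain.

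The second set holds the genes named further on whose promoter windows were overlapped by peaks of both libraries. Calcr, the calcitonin receptor gene, has its window at chr6:3763574-3763873 on the minus strand. Oprm1, the mu opioid receptor gene, has it at chr10:6788320-6788619 on the plus strand. Dync1i1, which encodes an intermediate chain of the dynein motor, has it at chr6:5725389-5725688 on the plus strand. Zfp804b, which encodes a zinc finger protein, has it at chr5:7344329-7344628 on the minus strand. Capitals mark the bases inside the peaks of both libraries.
Calcr: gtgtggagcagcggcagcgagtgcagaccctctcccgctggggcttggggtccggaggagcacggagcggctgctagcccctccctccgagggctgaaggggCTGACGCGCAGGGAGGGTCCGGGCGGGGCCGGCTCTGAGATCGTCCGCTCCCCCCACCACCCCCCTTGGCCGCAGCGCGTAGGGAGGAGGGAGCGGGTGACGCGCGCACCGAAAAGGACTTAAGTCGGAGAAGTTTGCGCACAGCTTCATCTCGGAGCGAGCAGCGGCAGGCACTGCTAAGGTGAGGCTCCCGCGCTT
Oprm1: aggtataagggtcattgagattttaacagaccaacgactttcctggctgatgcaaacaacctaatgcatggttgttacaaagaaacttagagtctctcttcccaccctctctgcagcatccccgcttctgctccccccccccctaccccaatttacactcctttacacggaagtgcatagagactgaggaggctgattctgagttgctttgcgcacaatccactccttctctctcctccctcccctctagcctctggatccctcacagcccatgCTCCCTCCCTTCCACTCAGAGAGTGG
Dync1i1: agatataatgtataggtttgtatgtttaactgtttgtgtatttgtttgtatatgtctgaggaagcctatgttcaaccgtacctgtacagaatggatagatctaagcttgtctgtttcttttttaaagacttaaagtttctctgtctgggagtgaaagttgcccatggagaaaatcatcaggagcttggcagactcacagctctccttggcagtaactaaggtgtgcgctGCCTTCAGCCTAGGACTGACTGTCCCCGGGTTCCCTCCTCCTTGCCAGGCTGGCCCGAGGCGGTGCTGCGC
Zfp804b: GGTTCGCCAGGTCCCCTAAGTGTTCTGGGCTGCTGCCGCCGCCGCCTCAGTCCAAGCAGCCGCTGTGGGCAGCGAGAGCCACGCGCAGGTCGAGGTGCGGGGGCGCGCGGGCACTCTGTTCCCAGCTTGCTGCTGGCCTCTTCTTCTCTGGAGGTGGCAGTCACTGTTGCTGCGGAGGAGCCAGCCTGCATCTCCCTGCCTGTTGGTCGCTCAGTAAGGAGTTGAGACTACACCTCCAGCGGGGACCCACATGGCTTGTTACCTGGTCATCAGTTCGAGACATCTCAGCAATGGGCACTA

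The overlapped part was 198 of 300 bases at Calcr, 26 at Oprm1, 71 at Dync1i1 and all 300 at Zfp804b. The pileups at these promoters were 23.1 in KO and 34.5 in WT at Calcr, 26.9 in KO and 38.9 in WT at Oprm1, 33.1 in KO and 35.3 in WT at Dync1i1, and 25.4 in KO and 32.9 in WT at Zfp804b. Across the window the median pileup was 19.4 in KO and 25.2 in WT, and the upper quartile 23.9 in KO and 31.9 in WT. All 4 WT values and all KO values but that of Calcr lay above the upper quartile.

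The chromosome starts were slightly denser in peaks than the rest of the same chromosomes, and by the same factor in both libraries. Density was 14.7 peaks per Mb in KO (interval 13.9 to 15.5) and 14.4 in WT (13.7 to 15.2). Beyond 8 Mb it was 12.5 per Mb in KO and 12.2 in WT, so the window stood at 1.18 times the rest in KO (1.12 to 1.25) and at 1.18 times in WT (1.12 to 1.25). Chromosomes 8 and 13 had the highest ratios. Without both, a choice made after their values were seen and one that lowers the ratio by construction, the ratio was 1.02 in KO (0.961 to 1.09) and 1.02 in WT (0.960 to 1.09), over 17 chromosomes with 1085 KO peaks and 1061 WT peaks.

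The first megabase was the sparsest of the window, narrowly so in KO, and density did not fall with distance from the centromere. Over the 19 autosomes, the megabase from 3 to 4 Mb held 239 KO peaks and 206 WT peaks, or 12.6 per Mb in KO and 10.8 in WT. The next held 253 KO and 275 WT peaks, and the one from 5 to 6 Mb held 269 KO and 263 WT peaks. The densest was the megabase from 6 to 7 Mb, with 368 KO peaks and 340 WT peaks, 19.4 per Mb in KO and 17.9 in WT. Chromosome 8 alone gave 91 of these KO peaks and 88 of these WT peaks, and without that chromosome the bin stood at 15.4 per Mb in KO and 14 in WT. The last megabase held 268 KO peaks and 288 WT peaks. In KO the interval of the first megabase, 11.0 to 14.3 per Mb, overlapped that of the next, 11.7 to 15.1. Every megabase was counted at full length, and any unassembled bases after 3 Mb were not subtracted. From the first to the last megabase there were 10.3, 12.8, 9.79, 8.42 and 6.11 coding genes per Mb.

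The density of the first megabase was 0.892 times that of the last in KO (0.746 to 1.07) and 0.715 times in WT (0.595 to 0.858). Against the following 4 Mb as a whole it was 0.826 times in KO (0.715 to 0.9497) and 0.707 times in WT (0.606 to 0.820). The 8 Mb limit was no visible border. Just outside it, from 8 to 9 Mb, there were 289 KO peaks and 293 WT peaks, 15.2 per Mb in KO and 15.4 in WT. Density was higher farther in, with 25.9 per Mb in KO and 26.2 in WT from 10 to 11 Mb and a maximum up to 20 Mb of 30.2 in KO and 28.9 in WT from 15 to 16 Mb.

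**Figure D1:**
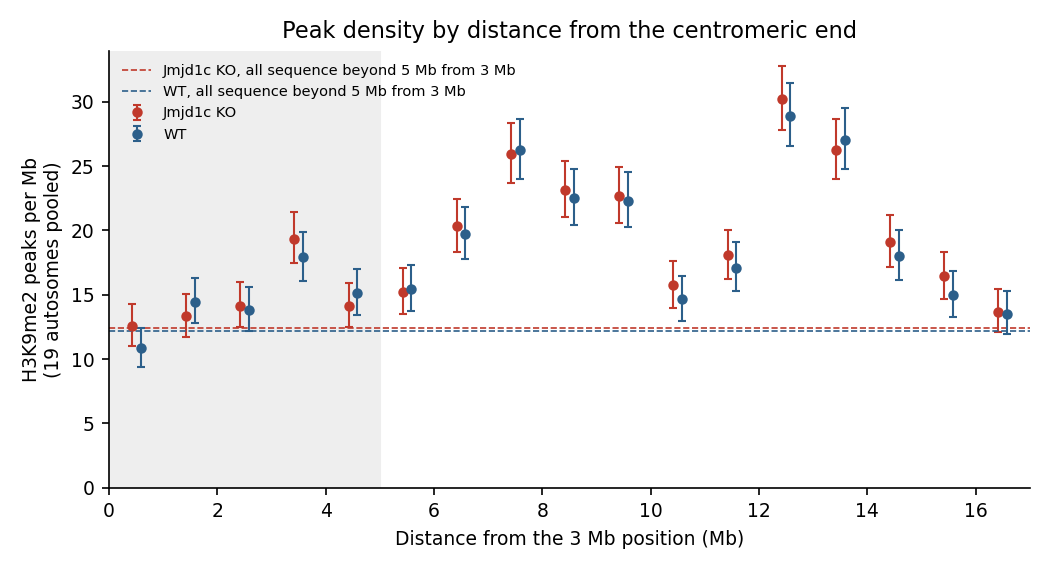
H3K9me2 peaks per Mb (vertical axis) in 1 Mb bins by distance from the 3 Mb position (horizontal axis, Mb), pooled over 19 autosomes, for KO (red) and WT (blue). Points carry exact Poisson 95% intervals, dashed lines give all sequence beyond 8 Mb, and grey marks the first 5 Mb, where the first bin stands at 12.6 in KO and 10.8 in WT and denser bins follow beyond the grey area.

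The peaks of lowest q were spread differently. Of peaks with a q of 1e-05 or lower, the megabases from 3 Mb on held 58, 20, 23, 40 and 22 in KO and 53, 43, 39, 57 and 26 in WT. The first megabase thus held more strong peaks than the last, by 2.64 times in KO and 2.04 times in WT, where the full lists had fewer. Against the mean of the other 4 Mb the factor was 2.21 in KO (1.57 to 3.07) and 1.28 in WT (0.924 to 1.76). Against the rest of the autosomes its density of strong peaks was 3.03 times as high in KO (2.30 to 3.93) and 1.76 times in WT (1.31 to 2.31). These strong peaks of the first megabase lay on 14 chromosomes in each library. Of them, 48 in KO (82.8%) and 47 in WT (88.7%) were overlapped by a peak of the other library. The same share was not computed for strong peaks elsewhere, so it cannot be called particular to the first megabase. With the run of peaks at the very start of chromosome 9 left out, 43 remained in KO and 42 in WT.

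**Figure D2:**
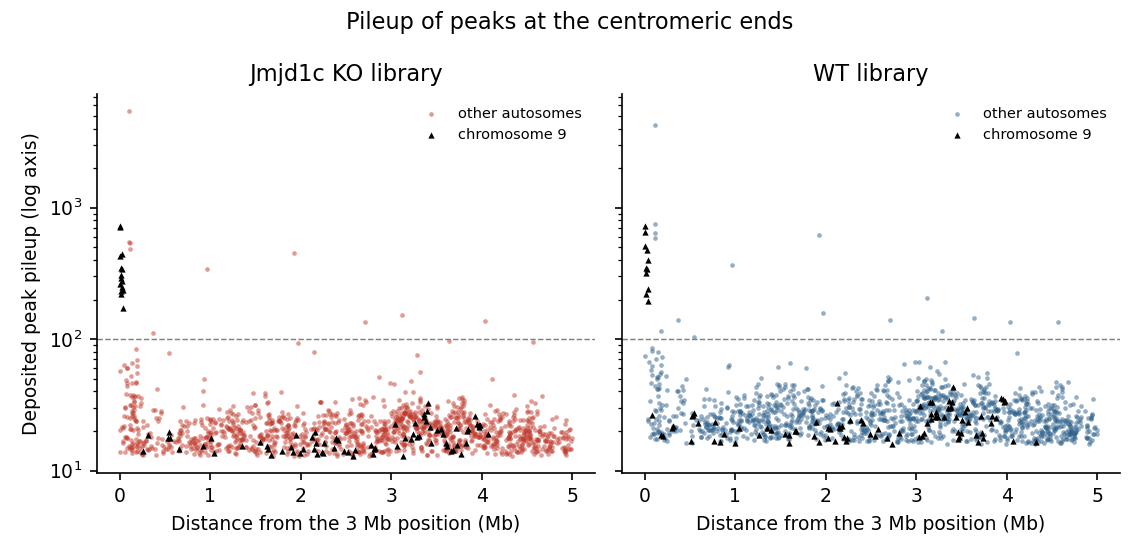
Deposited pileup of every peak of the window (vertical axis, log scale) by distance from the 3 Mb position (horizontal axis, Mb), KO left and WT right; triangles are chromosome 9 and the dashed line is a pileup of 100. Of the peaks with a pileup of 100 or more, 19 in KO and 16 in WT lie in the first 200 kb, while most peaks at all distances lie near the medians of 19.4 in KO and 25.2 in WT.

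Very high peaks were more frequent at the chromosome starts than in the rest of the autosomes. A pileup of 100 or more was reached by 25 of the KO peaks (1.79%, interval 1.16% to 2.63%) and by 27 of the WT peaks (1.97%, 1.30% to 2.85%). Over all autosomal peaks the share was 0.365% in KO and 0.437% in WT. Per Mb such peaks were 7.15 times as dense as in the rest in KO (4.38 to 11.3) and 6.43 times in WT (4.04 to 9.91). They sat at the outermost part of the window: 21 in KO and 19 in WT lay between 3 and 4 Mb, and 4 in KO and 8 in WT in the other 4 Mb. Between the libraries they coincided, with 21 of 25 KO peaks and all 27 WT peaks overlapped by a peak of the other list. The KO partners of 6 of the 27 WT peaks stayed below 100, with pileups of 75.9 to 97.5.

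The largest group was a run of peaks at the first bases of chromosome 9. In its first 40 kb there were 15 KO peaks from 3000002 to 3038281 and 11 WT peaks from 3000002 to 3038268, covering 40.2% of that stretch in KO and 33.2% in WT. Pileups ran from 172 to 726 in KO (median 292) and from 193 to 730.5 in WT (median 350). All 11 WT peaks and 11 of the 15 KO peaks were shared. Their enrichment over the local background was low, from 1.49 to 4.71 times in KO and from 1.74 to 3.76 times in WT, the background there being high as well. The nearest protein-coding gene was Alkbh8, which encodes a tRNA-modifying enzyme, at 297 kb or more from each KO peak and each WT peak of the run. Without this run the very high peaks numbered 10 of 1382 in KO (0.724%) and 16 of 1361 in WT (1.18%), at 2.86 times the density of the rest in KO (1.32 to 5.52) and 3.81 times in WT (2.10 to 6.49).

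A single site elsewhere was far higher, and another group lay in a similar range. The highest peak of the window lay on chromosome 12, from 3109790 to 3110151 in KO and from 3109726 to 3110209 in WT, 137 kb from Rab10, a gene for a small GTPase of membrane traffic. Its pileup was 5463 in KO and 4277 in WT, and its enrichment 27.3 times in KO and 20.2 times in WT. On chromosome 10 a group of 3 peaks in each library spanned 3109542 to 3116991 in KO and 3109534 to 3116982 in WT, with pileups of 481 to 544 in KO and 592 to 746 in WT. All 6 were shared, and the nearest coding gene was the predicted 9230019H11Rik, 9.42 kb or less away in KO and 9.39 kb or less in WT. Each of these sites was thus called in both genotypes.

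A further site lay inside a gene, Ppp1r9a on chromosome 6, which encodes the actin-binding protein neurabin and belongs to an imprinted cluster. The peak ran from 4923778 to 4924329 in KO and from 4923684 to 4924321 in WT, with a pileup of 454 in KO and 622 in WT and an enrichment of 15.4 times in KO and 12.8 times in WT. The remaining sites that reached 100 in both libraries were isolated peaks, 1 each on chromosomes 2, 3, 13, 16 and 18. The highest of them, from 3964411 on chromosome 2 in KO and from 3964328 in WT, reached 342 in KO and 369 in WT and lay 53.0 kb from Frmd4a in KO and 52.9 kb in WT. Sequence under these peaks was not read here, and how far reads there map to several places was not tested.

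Apart from the very high peaks, pileup in the window was like that of the rest. Median pileup was 19.4 in KO and 25.2 in WT, against 19.4 in KO and 25.8 in WT beyond 8 Mb. Leaving out pileups of 100 or more, the medians were 19.2 in KO and 24.96 in WT, against 19.3 in KO and 25.7 in WT. The upper tail was longer: the 95th percentile was 36.4 in KO and 49.5 in WT, against 31.6 in KO and 44.0 in WT for the rest. Median pileup was highest from 6 to 7 Mb, at 21.4 in KO and 28.8 in WT, and lowest from 7 to 8 Mb, at 18.1 in KO and 22.8 in WT.

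The difference between chromosomes was much larger than the difference between window and rest. Chromosome 8 had 136 KO peaks and 137 WT peaks in its window, at 2.59 times the density of its rest in KO (2.16 to 3.10) and 2.84 times in WT (2.36 to 3.39). Chromosome 13 had 176 KO peaks and 174 WT peaks, at 2.53 times in KO (2.15 to 2.96) and 2.40 times in WT (2.04 to 2.81). Even so, neither window was the densest 5 Mb of its chromosome. Chromosome 8 ranked 2 of 25 such windows in both libraries, and chromosome 13 ranked 2 of 23 in KO and 3 of 23 in WT. No other chromosome start was among the 3 densest windows of its chromosome in either library.

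At the other extreme stood chromosomes 7 and 19. The start of chromosome 7 held 7 KO peaks and 8 WT peaks, 0.175 times the density of its rest in KO and 0.197 times in WT. That of chromosome 19 held 5 KO peaks and 4 WT peaks, 0.148 times in KO and 0.128 times in WT. Both starts are gene-dense, with 122 coding genes in the window of chromosome 7 and 183 in that of chromosome 19. The start of chromosome 14, with 80 coding genes, was not sparse, at 1.27 times its rest in KO and 1.23 times in WT. Chromosomes 12, 16 and 17 were also sparse at the start, at 0.416, 0.633 and 0.423 times the rest in KO and 0.400, 0.722 and 0.521 times in WT. Their windows had 5, 8.4 and 7 coding genes per Mb, against 5.84, 7.07 and 11.6 in the rest of these chromosomes.

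Over all 19 chromosomes, the start was denser than the rest on 12 in KO and on 10 in WT. The interval of the ratio lay above 1 on 8 chromosomes in KO and 6 in WT, and below 1 on 6 in KO and 5 in WT. The median chromosome had a ratio of 1.07 in KO and 1.10 in WT. Chromosomes 1, 4, 6 and 9 were among the denser starts, at 1.69, 1.78, 1.53 and 1.51 times the rest in KO and 1.88, 1.76, 1.47 and 1.73 times in WT. Single chromosomes thus went both ways, and no direction was common to all centromeric ends.

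**Figure D3:**
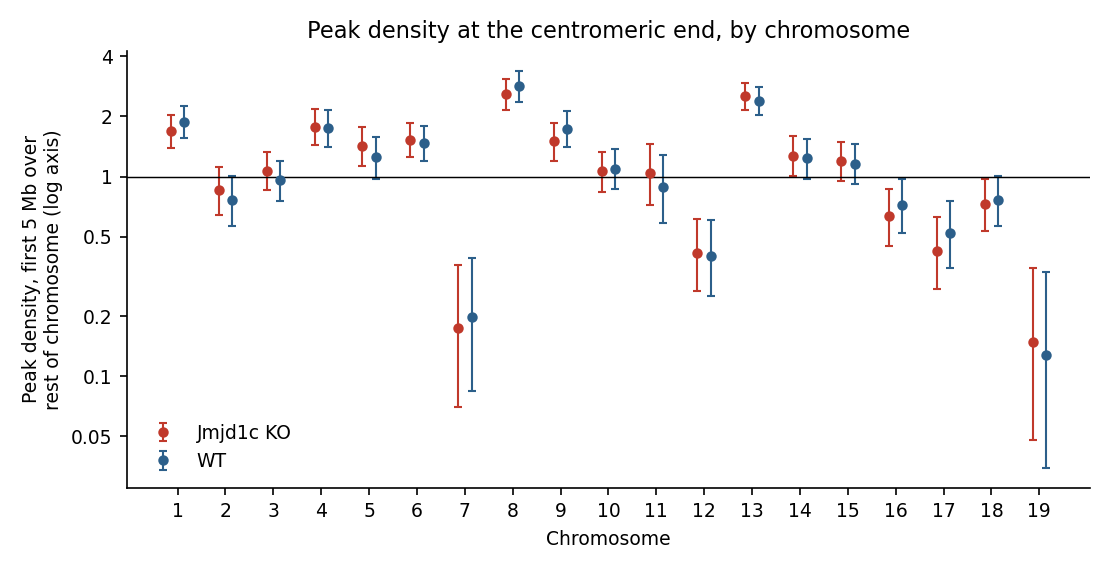
Peak density in the first 5 Mb over that of the rest of the same chromosome (vertical axis, log scale, no unit) for chromosomes 1 to 19, KO (red) left of WT (blue), with exact 95% intervals for counting error. The ratios range from 0.148 to 2.59 in KO and from 0.128 to 2.84 in WT, and the libraries lie close together on each chromosome.

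The first peak also came at very different distances. On chromosome 9 it began at position 3000002 in both libraries. On chromosome 7 it began 1282 kb after 3 Mb in KO and 2275 kb after it in WT. On chromosome 19 the distance was 120 kb in KO and 2149 kb in WT, a difference that rests on few peaks. Every autosome held at least 1 peak of each library in its window.

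Within the window, megabases with more coding genes tended to hold fewer peaks. Of the 95 bins of 1 Mb, 13 had no peak in either library, and these overlapped 3 to 49 coding genes each, with a median of 17. Bins with a peak had a median of 5. Across the 95 bins the rank correlation between peaks of both libraries and coding genes was -0.537, given as a description of neighbouring bins that share libraries and chromosomes. The densest bins were few: 5 of the 95 held 272 KO peaks (19.5%) and 295 WT peaks (21.5%).

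The densest bin was the gene-free megabase from 6 to 7 Mb of chromosome 8, with 91 KO peaks and 88 WT peaks. It is part of a gap of 3.51 Mb, from 5105288 to 8617234, between Slc10a2, the gene of the intestinal bile acid transporter, and Efnb2, which encodes an ephrin ligand of cell contact signalling. The whole gap held 144 KO peaks and 138 WT peaks, 41.0 per Mb in KO and 39.3 in WT. Its peaks were of moderate height, with pileups of 13 to 47.7 in KO (median 21.2) and 16.4 to 61.9 in WT (median 28.3). Of them, 80 in KO (55.6%) and 80 in WT (58.0%) were overlapped by the other library.

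The next densest bins were on chromosome 13. From 4 to 5 Mb, in the cluster of Akr1c genes, whose enzymes reduce steroids and related carbonyl compounds, there were 60 KO peaks and 69 WT peaks. From 5 to 6 Mb, around Klf6, a zinc finger transcription factor gene, there were 45 KO peaks and 50 WT peaks. In the 9 Akr1 genes of the cluster each gene body held 0 to 3 KO peaks and 0 to 2 WT peaks. Akr1e1 had 2 in each library, all shared, and Akr1c20 had 3 KO peaks and 1 WT peak. Most peaks of this dense bin thus lay outside these gene bodies, whose share of the sequence of the bin was not computed. Members of the family resemble each other, so peaks assigned to single genes are uncertain.

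The other leading bins held several coding genes. The megabase from 4 to 5 Mb of chromosome 1, with Rp1 and Sox17, held 35 KO peaks and 47 WT peaks. The one from 6 to 7 Mb of chromosome 10, with Oprm1 and Ipcef1, held 41 KO peaks and 41 WT peaks. Compared at like gene number, the window was not denser throughout. Bins without a coding gene averaged 27.2 KO peaks and 26.7 WT peaks in the window (6 bins), against 17.02 in KO and 16.7 in WT elsewhere (203 bins), a ratio of 1.60 in KO (1.36 to 1.87) and 1.59 in WT. Of the 163 KO peaks and 160 WT peaks in these 6 bins, 91 in KO and 88 in WT lay in a single bin of chromosome 8. The ratio thus rests mostly on that bin.

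With 1 to 4 coding genes the averages were 20.03 in KO and 20 in WT, against 19.8 in KO and 19.3 in WT elsewhere. With 5 to 14 they were 14.6 in KO and 14.3 in WT, against 9.41 in KO and 9.35 in WT, a ratio of 1.56 in KO (1.42 to 1.70) and 1.53 in WT (1.39 to 1.67). With 15 or more they were 4.61 in KO and 4.26 in WT, against 4.01 in KO and 3.86 in WT. The averages fell from class to class in the window, whereas in the rest they were highest at 1 to 4 genes. The gene-free average of the window includes the chromosome 8 bin with 91 KO peaks and 88 WT peaks. As medians, gene-free bins of the window held 17 KO and 18 WT peaks, close to 17.5 KO and 17.5 WT in bins with 1 to 4 genes. Elsewhere the medians were 10 KO and 9 WT peaks in gene-free bins, and 16 KO and 15 WT with 1 to 4 genes.

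**Figure D4:**
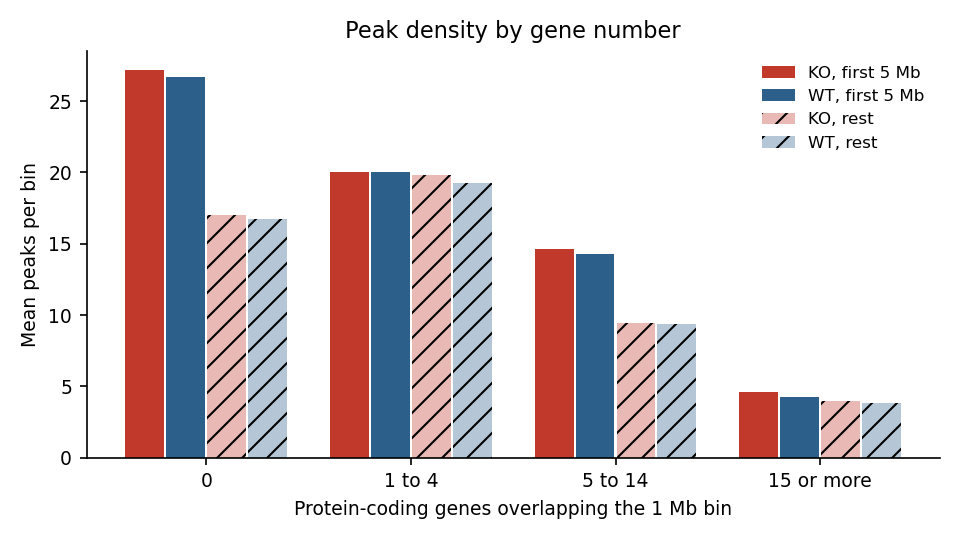
Mean number of peaks per 1 Mb bin (vertical axis) by the number of protein-coding genes that overlap the bin (horizontal axis), in the first 5 Mb (solid bars) and in the rest of the autosomes (hatched bars), KO red and WT blue. The solid bars fall from left to right and the hatched ones are highest at 1 to 4 genes. Of the 163 KO and 160 WT peaks behind the solid bars at 0 genes, 91 in KO and 88 in WT are from a single chromosome 8 bin. The solid bars exceed the hatched ones clearly only at 0 and at 5 to 14 genes, for example 27.2 in KO in the window against 17.02 in KO elsewhere.

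Of the genes in the window, 867 were protein-coding, and peaks were found in the bodies of 99 in KO (11.4%, interval 9.38% to 13.7%) and of 96 in WT (11.1%, 9.06% to 13.4%). Over all autosomal coding genes the share was 8.83% in KO and 8.65% in WT. The genes with a peak were long: their median length was 64.0 kb in KO and 63.0 kb in WT, against 13.9 kb in KO and 13.99 kb in WT for genes without one. Both libraries had a peak in 78 genes, and 117 had one in either. Coding gene bodies took up 37.1% of the window but held 25.6% of the KO peaks and 24.6% of the WT peaks. In the rest they took up 41.1% of the sequence and held 29.9% of the KO peaks and 29.9% of the WT peaks, so peaks were underrepresented in gene bodies in both.

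The coding gene with the most peaks was St18 on chromosome 1, from 6487231 to 6860940, which encodes a zinc finger transcription factor. It held 25 KO peaks and 19 WT peaks, with 11 shared in each list and pileups of 17.1 to 34.1 in KO and 20.01 to 45.5 in WT. Rp1, for a photoreceptor protein, followed with 15 KO peaks and 18 WT peaks, and Pdgfd, for a platelet-derived growth factor, with 13 KO peaks and 18 WT peaks. The sum of peaks per gene was 18 to 44 over the leading 10, and most of these genes are long.

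Sfi1 on chromosome 11, from 3131850 to 3203347, stood apart from the other leading genes. This gene for a centrin-binding protein of the centrosome is 71.5 kb long, and it held 17 KO peaks and 11 WT peaks, or 238 per Mb in KO and 154 in WT. St18, by contrast, held 66.9 per Mb in KO and 50.8 in WT. Pileups in Sfi1 were 24.2 to 83.4 in KO (median 37.0) and 23.9 to 115 in WT (median 51.9), above the medians of the window. Of its peaks, 12 in KO and all 11 in WT were shared. The pseudogene Fau-ps2 lies within Sfi1, and how far reads in Sfi1 map to several places was not tested.

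The other leading genes held 7 to 14 KO peaks and 8 to 13 WT peaks. They were Dync1i1 with 12 KO and 13 WT peaks, Fam110b with 12 KO and 12 WT, Celf2, for an RNA-binding splicing regulator, with 10 KO and 13 WT, and Frmd4a, for a scaffold protein of cell polarity, with 14 KO and 8 WT. Slc25a13, for the mitochondrial aspartate and glutamate carrier, had 12 KO peaks and 10 WT peaks, and Zfp804b had 7 KO peaks and 11 WT peaks. In these 6 genes, 3 to 7 peaks of each library were shared. The differences between the libraries ran in both directions.

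Chosen groups of genes in the window are read against the share of all autosomal coding genes with a peak, 8.83% in KO and 8.65% in WT, which is not matched to gene length. Of 15 imprinted and neighbouring genes, 5 had a peak in KO and 4 in WT. In the Peg3 domain of chromosome 7 the gene bodies of Peg3, Usp29, Zim1, Zim2 and Zim3 had none in either library, nor did those of Peg10, Asb4, Pon1, Pon2 and Pon3 of the chromosome 6 cluster. In that cluster Calcr had 2 KO peaks and 4 WT peaks, Sgce, for a sarcoglycan, 2 KO and 1 WT, Tfpi2, for a protease inhibitor, 2 KO and 1 WT, and Ppp1r9a 1 in each. Dlx5, a homeobox gene of limb and craniofacial development, had 1 KO peak and no WT peak.

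Of 9 B cell and immune genes 1 had peaks, close to the 11.4% in KO and 11.1% in WT over all coding genes of the window. It was Tox, for a nuclear factor of lymphocyte development, with 2 in each library. Xbp1, the transcription factor gene of plasma cell secretion, had none, nor did Cdk6, Crem, Map3k8, Lif, Osm, Insr and Rb1cc1. Of 7 opioid and hormone genes, 4 had peaks in each library: Ghr, the growth hormone receptor gene, had 7 KO peaks and 4 WT peaks, Oprm1 had 2 KO and 3 WT, and Oprk1 and Npbwr1, both for neuropeptide receptors, had 1 in each. Penk, Pomc and Esr1 had none.

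Of 7 genes listed as developmental regulators, 3 had peaks in KO and 3 in WT. Beside St18, Sox17, a gene of endoderm formation, had 2 KO peaks and 1 WT peak, and Hnf4g, for a nuclear receptor, had no KO peak and 2 WT peaks. Dlx5, also counted with the imprinted and neighbouring genes, had 1 KO peak and no WT peak. Dlx6, Plag1 and Arid1b had none. All 5 long genes of the nervous system in the window had peaks in both libraries, 33 in KO and 31 in WT in all: Xkr4 had 9 KO and 8 WT peaks, Celf2 as above, Cdk14 10 KO and 7 WT, Syne1 3 KO and 2 WT, and Camk1d 1 in each.

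Few promoters carried a peak, though in each library taken alone a larger share than in the rest of the autosomes. Of 1270 promoter windows, 25 were overlapped by a KO peak (1.97%, interval 1.28% to 2.89%) and 32 by a WT peak (2.52%, 1.73% to 3.54%). Over all autosomal promoter windows the share was 1.13% in KO and 1.2% in WT. Only 9 windows, of 7 genes, had a peak in both libraries (0.709%, interval 0.325% to 1.34%). Beyond 8 Mb that share was 0.627%, so windows with a peak in both were about as frequent there. A peak in either library was found in 48 windows (3.78%), against 1.62% beyond 8 Mb. All 48 lay on chromosomes 5, 6 and 9 to 14. Chromosome 14, the source of the copies printed above, gave 11 of its 156 windows in KO (7.05%) and 8 in WT (5.13%), while the other chromosomes together gave 14 of 1114 in KO (1.26%) and 24 in WT (2.15%). Beyond 8 Mb the share was 1.10% in KO and 1.15% in WT, so in KO the larger share came mostly from chromosome 14. GC content was 60.0% in windows with a KO peak and 60.2% in those with a WT peak, as medians, against 53.7% in KO and 53.7% in WT for windows without one.

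On chromosome 14, 71 of 80 coding genes in the window have a predicted gene's name made of Gm and a number. Of the 80, 26 had a KO peak and 24 a WT peak in the gene body. Of the 71 predicted genes, 24 had a KO peak and 23 a WT peak, with 14 having both and 33 having either. In WT, 3 peaks of the chromosome 14 window reached a pileup of 100, in Gm10410, Gm3629 and Gm2977, at 158, 145 and 103, and none did in KO. All of these WT peaks were overlapped by KO peaks, with pileups of 93.8, 97.5 and 77.9 in the same order. Pileups are not on a common scale between the libraries, so a cutoff of 100 does not compare the genotypes here.

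Between the genotypes the number of peaks at the chromosome starts was nearly equal in the full lists, as in the rest of the autosomes. The number of peaks in KO was 1.02 times that in WT (0.944 to 1.10), against 1.02 times (1.004 to 1.04) in the rest, and the tags were 1.03 times as many. Of peaks with a q of 1e-05 or lower there were 163 in KO and 218 in WT, 0.748 times as many in KO (0.607 to 0.920), against 0.635 times (0.602 to 0.669) in the rest. Fewer peaks in KO were thus seen at the stricter threshold and not in the full lists, and the caller's unequal fragment lengths also affect q. The covered length was 655 kb in KO (0.690% of the window) and 789 kb in WT (0.831%), 0.830 times as much in KO, against 0.824 times in the rest. The median width was 381 bp in KO and 494.5 bp in WT. Peaks in KO were thus narrower in the window as elsewhere; when KO peaks were widened by the 103 bp by which the caller's fragment lengths differ, the covered length was 1.01 times that in WT.

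Sharing was also at the level of the whole lists. A peak of the other library overlapped 662 of the KO peaks (47.4%, interval 44.7% to 50.04%) and 658 of the WT peaks (47.96%, 45.3% to 50.6%), by at least 1 bp. Over all autosomal peaks the share was 46.1% in KO and 46.8% in WT. Shared peaks were higher, with a median pileup of 21.6 in KO and 28.7 in WT, against 17.8 in KO and 23.0 in WT for the unshared. By distance, sharing was highest from 6 to 7 Mb, at 51.9% in KO and 55.9% in WT, and lowest from 7 to 8 Mb, at 42.5% in KO and 39.6% in WT. Much of that maximum came from the gene-free bin of chromosome 8, where 64 of 91 KO peaks and 64 of 88 WT peaks were shared. All chromosomes together had 191 shared KO peaks and 190 shared WT peaks from 6 to 7 Mb. Sharing by distance without chromosome 8 was not computed.

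By chromosome the KO count was 0.862 times the WT count on chromosome 17 and 1.25 times on chromosome 19 at the ends of the range. The interval excluded 1 on 0 of 19 chromosomes, and 11 had more peaks in KO, 7 in WT and 1 equal numbers. By bin, 1 of the 80 bins with a WT peak had an interval that excluded 1 (1.25%), against 0.483% of the 1864 autosomal bins with a WT peak. It was the gene-free megabase from 7 to 8 Mb of chromosome 13, with 31 KO peaks and 16 WT peaks, 1.94 times as many in KO (1.03 to 3.79), of which 10 in each library were shared. Across the 95 bins the Pearson correlation of the KO and WT numbers was 0.960, a description of bins that differ in gene content.

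**Figure D5:**
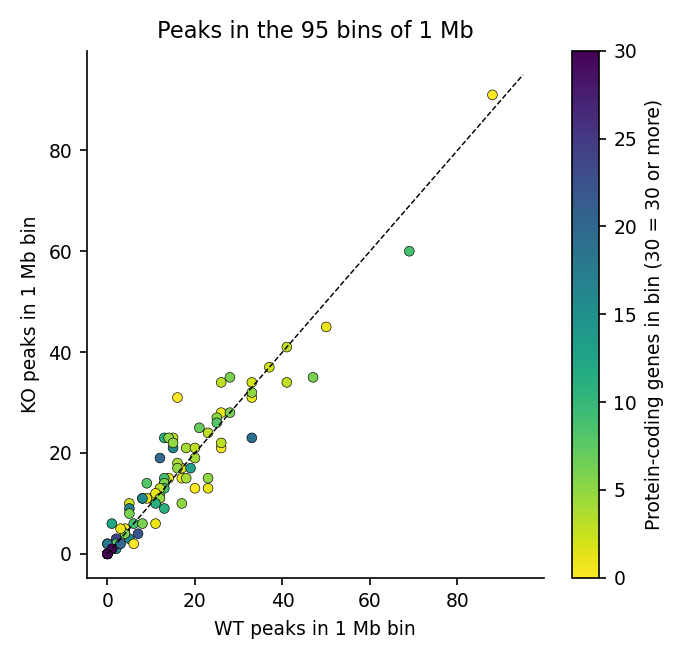
Number of KO peaks (vertical axis) and WT peaks (horizontal axis) in each of the 95 bins of 1 Mb in the first 5 Mb of 19 autosomes; colour gives the number of coding genes and the dashed line marks equal numbers. The bins lie along the line, with the gene-free bin of chromosome 8 at the top (91 in KO and 88 in WT) and gene-rich bins near 0.

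The outermost 200 kb, singled out after their values were seen, held more KO peaks than WT peaks. There were 97 KO peaks and 70 WT peaks, 25.5 per Mb in KO and 18.4 in WT, a ratio of 1.39 (1.01 to 1.91). Merging peaks within 5 kb left 53 in KO and 45 in WT, a ratio of 1.18 (0.777 to 1.79), and at a q of 1e-05 or lower there were 44 in KO and 36 in WT, a ratio of 1.22 (0.769 to 1.95). Without chromosome 9 there were 82 in KO and 56 in WT, a ratio of 1.46 (1.03 to 2.10). The larger KO number thus held without that chromosome, and lay within counting error under the other settings. Most of these peaks were on chromosomes 4, 9, 10 and 11, with 16, 15, 11 and 19 in KO and 10, 14, 9 and 12 in WT. Median pileup there was 30.3 in KO and 43.2 in WT, and 58 KO peaks (59.8%) and 56 WT peaks (80.0%) were shared.

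At the opposite, telomeric ends the outermost 5 Mb were less dense than the centromeric ones. They held 1077 KO peaks and 1008 WT peaks, 11.3 per Mb in KO and 10.6 in WT, against 14.7 in KO and 14.4 in WT at the centromeric ends, which stood at 1.30 times the telomeric density in KO (1.20 to 1.41) and 1.36 times in WT (1.25 to 1.48). Their median pileup was 19.8 in KO and 26.5 in WT, and 49.0% of KO peaks and 51.9% of WT peaks were shared. Peaks with a pileup of 100 or more numbered 25 in KO (1.79%) and 27 in WT (1.97%) at the centromeric ends, against 22 in KO (2.04%) and 22 in WT (2.18%) at the telomeric ends. The share of very high peaks was therefore no higher at the centromeric than at the telomeric ends.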

How the data were processed

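CUT&Tag libraries for H3K9me2 from activated B cells, 1 of the genotype jmjd1c B KO and 1 WT, were assigned to genotypes from their labels. Of the tools used, the submitters' processing notes list Bowtie2 2.4.2, Trim Galore 0.6.6, Picard and SAMtools 1.11, with mm10 as the build. Per the file headers, the authors called broad peaks in each library on its own with MACS2 2.2.7.1 at q and broad cutoffs of 0.01, with all duplicates kept and no control library. Tags were extended to 189 bp in KO and 292 bp in WT, which sets the smallest peak and affects width, pileup and q. The deposited pileup is a coverage signal, the deposited q-value and p-value are on a −log10 scale, and the deposited fold enrichment is the authors' ratio to local background; pileup and enrichment are the authors' values per peak.

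Members and gene lists were chosen with earlier results of these data known. Named were the 10 coding genes with the most peaks, the 5 highest peaks per list merged within 10 kb, the first peak per chromosome as a range, the 5 densest 1 Mb bins and the listed genes in the window. Jak2, Mixl1, Sntg1 and Adarb2 lay outside it and Zfp264 was not matched. Density was computed over the span between 3 Mb and the outermost gene or peak. RefSeq genes of GRCm38.p6 on chromosomes 1 to 19 (46709, of which 20558 are protein-coding, after leaving out 333 scaffold and patch entries) gave gene bodies, and 31396 RefSeq promoter windows, none of them on chromosome 18, gave promoters. Overlap needed 1 bp. Shares carry Clopper-Pearson intervals, counts Poisson intervals and ratios conditional binomial intervals at 95%; kept duplicates mean that they cover counting error only, and since both lists hold many common sites those of KO to WT ratios treat dependent counts as independent. Computations (Python 3.11.15, SciPy 1.17.1, pandas 2.3.3, Biopython 1.88) were tested on simulated data. Alternatives were a stricter q, peaks with a pileup of 100 or more left out, limits at 6 and 10 Mb, merging within 5 kb, omission of chromosome 13, reciprocal overlap, widened KO peaks and gene-free bins; leaving out chromosomes 8 and 13, the first 40 kb of chromosome 9, and the variants for the first 200 kb were added after seeing the data.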

Additional observations from a re-analysis of the deposited data

Results flagged for a closer look

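The start of the X chromosome lies outside the autosomal comparisons, and it held peaks in both libraries. Up to 8 Mb there were 43 KO peaks and 41 WT peaks, 8.60 per Mb in KO and 8.20 in WT. The rest of the X chromosome had 12.04 per Mb in KO and 12.6 in WT, so its start was sparser, at 0.714 times the rest in KO (0.515 to 0.966) and 0.651 times in WT (0.465 to 0.886). The median pileup there was 17 in KO and 22.3 in WT, and the highest 58.0 in KO and 64.2 in WT.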

How the results depend on the processing

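Of the summary values recomputed under the alternatives, 49 stayed inside the counting interval of the value reported (for numbers of chromosomes, within 1.5 times). Another 23 moved outside it, and 3 turned to the other side of 1. The values that moved or turned are given here, and the cause was not tested. At the stricter q both lists were filtered, so sharing there means overlap with a strong peak of the other library. At a q of 1e-05 or lower, the KO to WT ratio was 0.748 in number (1.02 in the full lists) and 0.701 in covered length, density relative to the rest was 1.70 in KO and 1.45 in WT, median pileup relative to the rest was 1.12 in KO and 1.08 in WT (0.977 in the full WT list), sharing was 57.1% in KO and 42.2% in WT, and the first to last megabase ratio was 2.64 in KO and 2.04 in WT, against 0.892 in KO and 0.715 in WT in the full lists. With the limit at 6 Mb, density relative to the rest was 1.07 in KO and 1.06 in WT and the KO pileup ratio 0.975; with the limit at 10 Mb it was 1.26 in KO and 1.27 in WT. Merging within 5 kb gave a covered length ratio of 0.900 and a first to last megabase ratio of 0.743 in KO. Density relative to the rest was 1.10 in KO and 1.10 in WT without chromosome 13, 1.02 in KO and 1.02 in WT without chromosomes 8 and 13, and 1.60 in KO and 1.59 in WT in gene-free bins. A reciprocal overlap of 50% left 31.0% of KO and 31.6% of WT peaks shared, and widened KO peaks turned the covered length ratio to 1.01. Chromosomes denser at the start than in the rest, 12 in KO and 10 in WT of 19, numbered 8 in KO and 8 in WT with the limit at 6 Mb and 14 in KO and 12 in WT at the stricter q. No paired analysis was possible because each genotype had 1 library. Depth was nearly equal, but single libraries, the absence of a control and the caller's unequal fragment lengths limit every comparison of the genotypes.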

Other observations

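Long noncoding RNA genes of the chromosome starts also held peaks. The leading one was 2700069I18Rik, with 5 KO peaks and 7 WT peaks, of which 5 in each library were shared. Gm20619 and Gm40662 had 7 KO peaks and 4 WT peaks each, Gm26680 had 6 KO peaks and 3 WT peaks, and Gm32828 had 5 KO peaks and 3 WT peaks. These genes were taken by their number of peaks.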
